A study of Rattus norvegicus with 8 samples.

Results

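Titin (Ttn), the myomesins (Myom1 and Myom2), cypher (Ldb3), nebulette (Nebl), cardiac myosin-binding protein C (Mybpc3) and the splicing factor gene Rbm20 were examined in left ventricular myocardium of male rats. These 7 genes were chosen by name, as sarcomere genes with many exons that are alternatively spliced, together with Rbm20. The array carried 187 probe sets that named 1 of them and no other gene, out of 220231 probe sets in all. There were 46 for Ttn, 33 for Myom1, 32 for Myom2, 26 each for Nebl and Mybpc3, 17 for Rbm20 and 7 for Ldb3. The reference strain was SHR, the spontaneously hypertensive rat, and PD5 was a minimal congenic strain derived from it, so both groups share most of the SHR genome. A congenic strain holds a stretch of another strain's chromosome, and the labels do not name the stretch in PD5. All 8 animals were 2 months old, came from in-house breeding, ate standard chow and were untreated. Each strain gave 4 arrays, 1 per animal.

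The sarcomere is the contractile unit of heart muscle. Titin spans from its Z-disc, where cypher and nebulette also lie, to its M-band, where the myomesins cross-link titin and myosin, and Mybpc3 sits on the thick filament. Titin acts as a spring, and its stiffness depends on which exons of its elastic region are kept in the transcript. RBM20 binds titin and other muscle transcripts and causes exons to be left out, and its mutations cause dilated cardiomyopathy in people. A probe set of a whole-transcript array reads a short part of a gene. A change of exon use can show as a probe set that moves apart from the rest of its gene, but only where a probe set reads the changed exon. Which exons these probe sets read is not known here.

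The values were log2 levels as deposited. Cardiomyocyte markers stood at the top of the scale: the 7 measured of 9 had a median at the 99.9 percentile of gene levels, and their mean ranged from 12.87 to 12.93 in PD5 and from 12.86 to 12.92 in SHR. Skeletal muscle markers, of which 5 of 9 were measured, had a median at the 29.8 percentile and a mean of 5.55 to 5.65 in PD5 and 5.38 to 5.61 in SHR. Of the fat markers (5 of 5 measured), Ucp1 was at 9.05 in PD5 210 against 3.79 to 4.83 in the other 7 arrays. That array was also highest in Adipoq (7.70, next 6.65) and Plin1 (7.04, next 6.27). Cidea was near 11 on all arrays, at 11.22 in PD5 210, and Lep was highest in SHR 218 (5.45, with PD5 210 at 5.11). The array of SHR 219 stood highest in atrial Myl7, at 10.41, and SHR 215 lowest, at 7.23. Mesothelial markers (4 of 4 measured) had a mean of 6.26 to 6.56 in PD5 and 6.45 to 7.24 in SHR. Macrophage markers (4 of 4) had one of 7.82 to 7.87 and 7.93 to 8.10. Among these, PD5 minus SHR was -0.41 in Cd163 and -0.09 each in Adgre1 and Csf1r, and Cd68 went the other way, at 0.05. Lymphocyte markers (4 of 4, 1 higher and 3 lower in PD5) had a mean of 5.66 to 5.72 and 5.74 to 5.82. How often means of other lists lie apart was not counted. The part of other cell types in the results below was not tested, and values without these arrays are given where they turn a direction. In whole tissue, fewer cells of a type and less RNA per cell cannot be told apart. Among all 17305 genes, 9 had an adjusted p under 0.05 in limma, a moderated linear model fitted to every gene, which is 0.052% of genes.

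None of the 7 genes was called different between PD5 and SHR (limma, adjusted p from 0.915 for Rbm20 to 0.996 for Mybpc3), and at an unadjusted p under 0.05 there were also 0, where 5.68% of all genes lay. The values of the strains overlapped in all 7, against 3.49% of all genes with groups that do not overlap. The 95% interval of every member lay within a fold of 0.874 and a fold of 1.27, PD5 over SHR. A missed threshold does not show that levels were equal, and the interval gives the sizes that these 8 arrays leave possible.

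Rbm20, the splicing repressor, had the largest difference of the 7. Its gene value, the mean of its 17 probe sets, was 8.83, 8.64, 8.52 and 8.63 in PD5 207, 209, 210 and 212, and 8.62, 8.45, 8.48 and 8.42 in SHR 213, 215, 218 and 219. PD5 207 was highest, and the strains overlapped because SHR 213 lay above PD5 210. The log2 difference, PD5 minus SHR, was 0.16 (SE 0.08, 95% interval -0.03 to 0.34, unadjusted p = 0.0862 in limma). It was 0.10 without PD5 207 and 0.20 without PD5 210, and with the median of the probe sets in place of their mean it was -0.06, so its direction depends on how the probe sets are combined.

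Ttn and Mybpc3 had the smallest differences of the 7. The Ttn gene value was 12.23, 12.11, 11.97 and 12.12 in the PD5 animals and 12.23, 12.05, 12.15 and 12.11 in the SHR animals, in the order above. PD5 210 was lowest, PD5 207 and SHR 213 were highest, and the groups lay over each other. The difference was -0.03 (SE 0.07, interval -0.19 to 0.14), and its sign turned when PD5 210 (0.02) or SHR 213 (0.01) was left out. Taking only the brightest Ttn probe set gave 0.05.

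Mybpc3, which encodes a thick filament protein that tunes cross-bridge cycling, stood at 11.82, 11.75, 11.67 and 11.72 in PD5 and at 11.86, 11.63, 11.69 and 11.74 in SHR. SHR animals held the highest and the lowest of these values. The difference was 0.01 (SE 0.07), and it was below 0 without PD5 207 (-0.02), SHR 215 (-0.02) or SHR 218 (-0.0015).

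Neither M-band gene passed. Myom2, the myomesin of fast and cardiac muscle, was at 12.53, 12.44, 12.27 and 12.39 in PD5 and at 12.46, 12.27, 12.27 and 12.14 in SHR. The lowest array was SHR 219, and SHR 213 lay within the PD5 range. The difference was 0.13 (SE 0.09, interval -0.07 to 0.32), or 0.08 without SHR 219 and 0.18 without SHR 213. Without its probe set 17712800, described below, it was also 0.08. Myom1, the myomesin of all striated muscle, was at 10.73, 10.67, 10.69 and 10.82 in PD5 and at 10.79, 10.60, 10.67 and 10.58 in SHR. SHR 213 again lay among the PD5 animals. The difference was 0.07 (SE 0.07), and it was 0.02 without 1 dim probe set described below. Without PD5 212 or SHR 219 it was 0.04, and without SHR 213 it was 0.11.

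The Z-disc genes showed no shared direction. Nebl, whose protein anchors actin at the Z-disc, was at 10.21, 10.15, 9.86 and 10.08 in PD5 and at 10.12, 10.15, 9.89 and 9.91 in SHR, a difference of 0.06 (SE 0.10). It was 0.02 without PD5 207 or without SHR 218, 0.04 without PD5 209, 0.03 without SHR 219, 0.11 without SHR 215, 0.10 without SHR 213 and 0.13 without PD5 210. The lowest animal of each strain, PD5 210 and SHR 218, lay close to each other. Ldb3, a PDZ and LIM domain protein that binds actinin, was at 11.90, 11.81, 11.86 and 11.91 in PD5 and at 11.94, 11.93, 11.91 and 11.92 in SHR. The SHR animals lay close together (SD 0.01) and the PD5 animals lay at or below them, with PD5 212 just above SHR 218. The difference was -0.05 (SE 0.06, interval -0.18 to 0.07), or -0.04 without PD5 209.

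**Figure D1:**
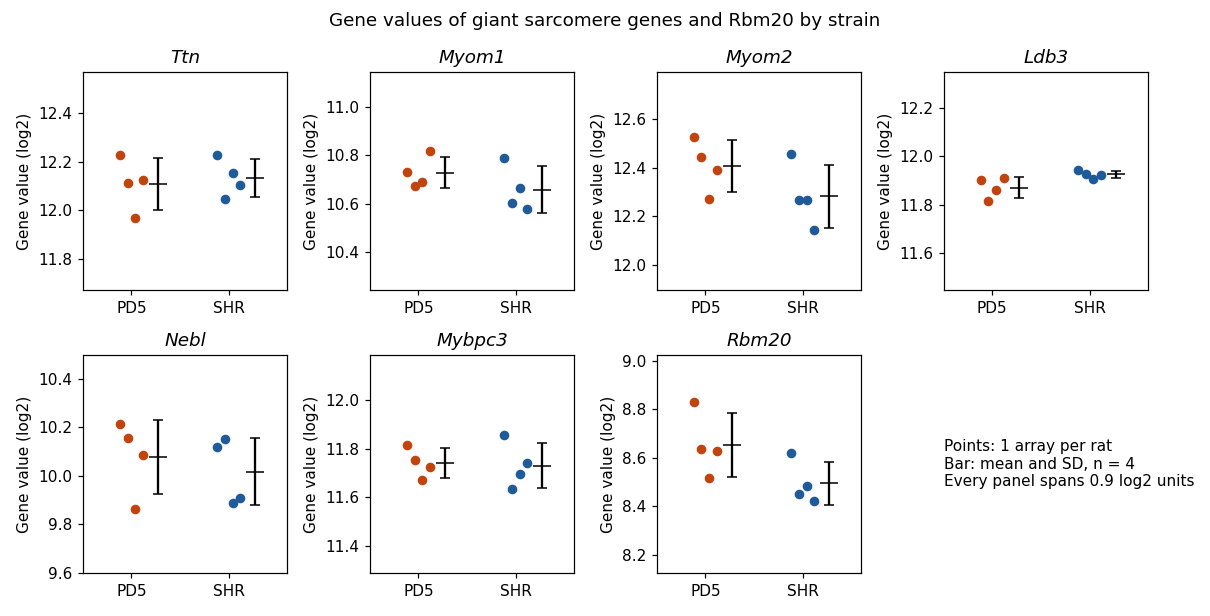
Gene values (log2, mean of a gene's probe sets) of the 7 genes on each of 8 arrays, PD5 in orange and SHR in blue, with the mean and SD of 4 beside the points and the same span of log2 units in every panel. The strains overlap in each panel, and the largest difference is 0.16 in Rbm20.

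Probe sets of 1 gene differed far more from each other than the strains did. A probe set's brightness also depends on its own sequence, so levels of different probe sets do not order amounts of RNA, and the files used here give no position along the gene. The spread is therefore described over probe sets in order of level. Ttn ran from 9.80 to 13.70 with a standard deviation over its probe sets of 1.08, and 41 of its 46 probe sets lay in the top 5% of all probe sets. None of them lay below the median of all probe sets, 6.92. Myom2 ran from 10.66 to 13.74 (SD 0.82), Mybpc3 from 9.95 to 12.93 (SD 0.75) and Ldb3 from 10.80 to 12.66 (SD 0.58). Rbm20 ran from 6.39 to 9.99 (SD 1.13), with 2 probe sets below the median of all. For comparison, the median of this standard deviation was 1.15 over the 10005 genes with at least 7 probe sets, with quartiles of 0.935 and 1.41.

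Nebl and Myom1 each held probe sets that stood away from the rest of their gene. In Nebl, 4 probe sets had mean levels of 2.91, 3.12, 4.80 and 5.47, while the other 22 ran from 9.92 to 12.41. This gave a standard deviation of 2.71, at the 99.5 percentile of those genes. In Myom1, the lowest had means of 5.91 (PD5) and 4.09 (SHR) and the next lay at 7.11 over all arrays, while the other 31 ran from 9.32 to 12.65 (SD 1.53).

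**Figure D2:**
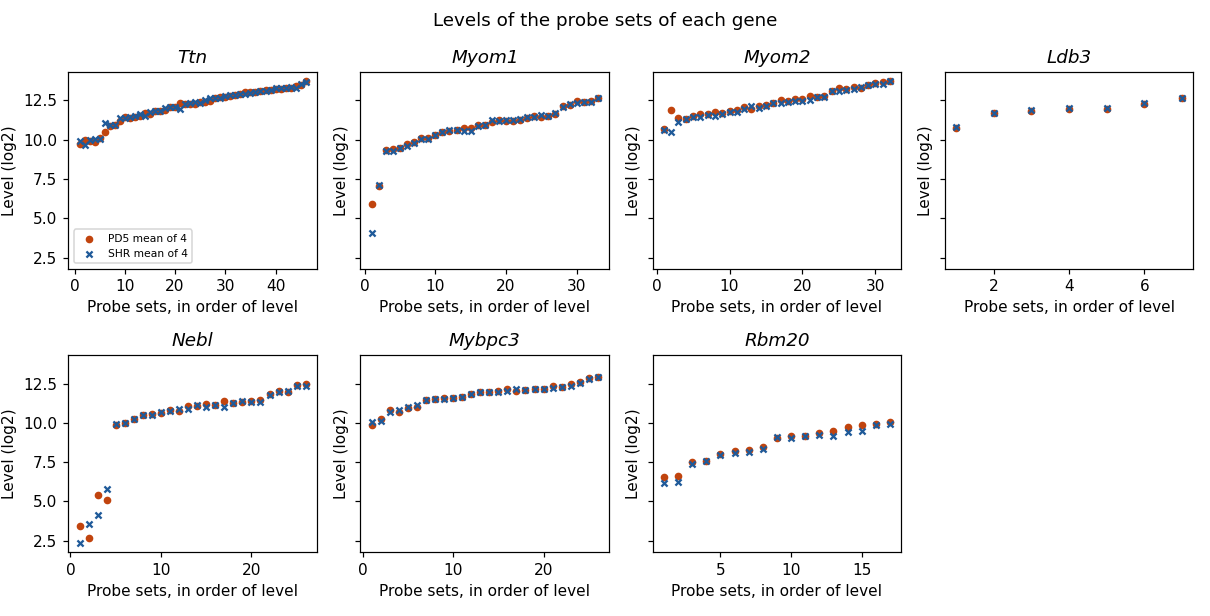
Mean level (log2) of every probe set of the 7 genes in PD5 (orange circles) and SHR (blue crosses), in order of level within the gene, which is not position along it. The marks of the strains lie close together at most probe sets, and stand apart at some dim ones, such as the lowest of Myom1 (5.91 against 4.09), and at some bright ones, such as Myom2 17712800 (11.90 against 10.48) and Ttn 17773557 (10.49 against 11.07).

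The width of this spread on each array, as a standard deviation, was close in both strains for most genes. For Ttn the standard deviation over probe sets was 1.05, 1.14, 1.18 and 1.08 in PD5 and 1.05, 1.13, 1.07 and 1.04 in SHR. For Rbm20 it was 1.13 ± 0.09 in PD5 and 1.16 ± 0.05 in SHR (SD over animals, n = 4 each), and for Nebl 2.70 ± 0.17 and 2.78 ± 0.21. For Myom1 it was 1.44 ± 0.06 in PD5 and 1.66 ± 0.20 in SHR, a difference of -0.22 that became -0.011 without the lowest probe set. For Myom2 it was 0.80 ± 0.04 in PD5 and 0.89 ± 0.07 in SHR, a difference of -0.09. Leaving out 1 array gave -0.112 to -0.065 for Myom2. The measure of spread mattered for some genes. As an interquartile range the difference was 0.238 in Rbm20, where the standard deviation differed by -0.03. In Mybpc3 it was -0.05, where the standard deviation differed by 0.02. As a score over chosen members, the spread was given no test.

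Single probe sets were then compared between the strains. Of the 187, 168 (89.8%) differed by less than 0.2 on the log2 scale, where 60.2% of all probe sets did. These shares are not matched for level, since 73.3% of the 187 lay in the top 5% of all levels. The median standard error over all probe sets was 0.21, larger than in the bright probe sets of these genes (0.12). After adjustment 0 passed at 0.05 over the whole array (limma, smallest adjusted p = 0.945), where 2 of 220231 did (0.000908%). At an unadjusted p under 0.05 there were 5 probe sets of these genes (2.67%), where 4.98% of all probe sets lay, and the strains did not overlap in 4 (2.14%), where the share over all was 2.87%. All of these were higher in PD5, where the shares over all were 2.55% and 1.43%. The direction was read after the values were seen, and probe sets of a gene share the arrays and the transcript. A difference of at least 0.5 was seen in 7 probe sets, of which 5 were among the 7 that lay below the median of all levels. The median standard error was 0.56 in those 7 dim probe sets and 0.12 in the others.

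**Figure D3:**
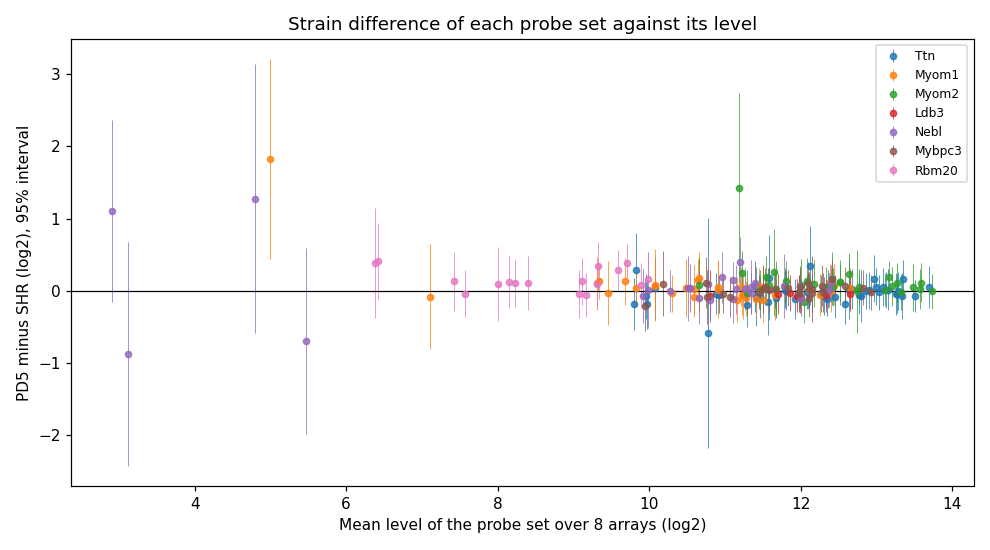
Difference PD5 minus SHR (log2, with its 95% interval from limma) of each of the 187 probe sets against its mean level over 8 arrays, coloured by gene. The bright probe sets gather around 0, and the dim probe sets of Nebl and Myom1 have wide intervals.

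In Rbm20, 14 of 17 probe sets were above 0 and 3 below, beside 49.4% of all probe sets above 0. The median difference was 0.12, beside -0.0025 over all probe sets. The probe set with the smallest p, 17626480, read 9.95, 9.95, 9.85 and 9.84 in PD5 and 9.46, 9.46, 9.73 and 9.41 in SHR. All PD5 values lay above all SHR values, and SHR 218 lay nearest to them. Its difference was 0.38 (SE 0.12, unadjusted p = 0.0103, adjusted p = 0.945 in limma). Next was 17626490, at 0.34 (SE 0.15), with PD5 between 9.31 and 9.64 and SHR between 8.84 and 9.33. On the lower side, 17626493 was at -0.06 and 17626484 at -0.05, within their errors. The brightest, 17626482, stood at 10.07 ± 0.14 in PD5 and 9.91 ± 0.22 in SHR, and the dimmest, 17626485, at 6.58 ± 0.56 and 6.19 ± 0.48 (SD, n = 4 each).

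In Ttn, 19 probe sets were above 0 and 27 below, with a median of -0.03, and 43 of 46 differed by less than 0.2. No Ttn probe set reached an unadjusted p under 0.05 in limma, and the strains overlapped in all 46. In the 2 with the largest differences, 1 animal stood apart. Probe set 17773557 read 11.63, 11.03, 8.17 and 11.13 in PD5 and 11.29, 10.73, 10.90 and 11.37 in SHR, with PD5 210 far below the other 7 arrays, and differed by -0.58 (SE 0.69). Probe set 17773620 read 12.42, 12.36, 12.01 and 12.42 in PD5 and 12.28, 11.28, 12.23 and 12.02 in SHR, a difference of 0.35 (SE 0.24) with SHR 215 lowest. On the lower side the smallest p belonged to 17773633, at 12.49 ± 0.12 in PD5 and 12.68 ± 0.14 in SHR, followed by 17773553, at 11.20 ± 0.12 and 11.39 ± 0.18 (SD, n = 4 each). Next on that side were 17773653 (-0.19, SE 0.15) and the dimmest, 17773572 (-0.18, SE 0.16). On the higher side 17773556 (0.29, SE 0.22), 17773636 (0.16, SE 0.11) and 17773630 (0.17, SE 0.14) followed. The brightest Ttn probe set, 17773639, differed by 0.05 (SE 0.13).

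In Myom1 the lowest probe set, 17862316, had the largest difference of all 187. It read 5.76, 6.09, 5.67 and 6.12 in PD5 and 4.23, 2.33, 5.66 and 4.13 in SHR. Values in PD5 lay together and above every SHR value, with SHR 218 just below them and SHR 215 lowest. The difference was 1.82 (SE 0.60, interval 0.44 to 3.21, unadjusted p = 0.0160, adjusted p = 0.965 in limma). The other 32 Myom1 probe sets lay between -0.13 and 0.17. Among them were 17862288, at 0.13 (SE 0.10), and on the lower side 17862284, at -0.11 (SE 0.11), and 17862293, at -0.10 (SE 0.10). The brightest, 17862314, was at 0.04 (SE 0.12).

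In Myom2, 27 of 32 probe sets were above 0, with a median of 0.08. Probe set 17712800 stood out, at 12.37, 12.06, 11.06 and 12.10 in PD5 and 10.88, 9.44, 11.97 and 9.63 in SHR. Its animals ranged widely, since SHR 215 and SHR 219 were lowest, and SHR 218 lay among the PD5 animals. The difference was 1.42 (SE 0.57, unadjusted p = 0.0380, adjusted p = 0.993 in limma). Probe set 17712789 was above in every PD5 animal, at 13.18 to 13.32 against 13.02 to 13.14, a difference of 0.18 (SE 0.10). The values of 17712779 overlapped, at 0.25 (SE 0.13). On the lower side 17712791 was at -0.16 (SE 0.12) and 17712794 at -0.03 (SE 0.13). The brightest, 17712802, differed by -0.0075 and the dimmest, 17712776, by 0.08 (SE 0.16).

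In Nebl, probe set 17721103 read 11.49, 11.35, 11.32 and 11.43 in PD5 and 10.94, 11.05, 11.30 and 10.68 in SHR. Strains did not overlap, though SHR 218 came close to PD5 210. The difference was 0.41 (SE 0.15, unadjusted p = 0.0254, adjusted p = 0.981 in limma). The 4 dim probe sets went in both directions, with 17721106 at 1.27, 17721105 at 1.10, 17721111 at -0.70 and 17721109 at -0.87, and SE from 0.55 to 0.81. The other 22 had a mean difference of 0.04, with the brightest, 17721123, at 0.11 (SE 0.11) and 17721127 at -0.13 (SE 0.13).

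Ldb3 and Mybpc3 had the narrowest ranges of differences. All 7 Ldb3 probe sets were below 0, between -0.08 and -0.03, with the smallest p at 17710387 (-0.08, SE 0.10) and 17710389 (-0.06, SE 0.10). The brightest, 17710391, was at -0.04 and the dimmest, 17710386, at -0.07 (SE 0.16). Mybpc3 had 15 probe sets above 0 and 11 below, between -0.20 and 0.17. At the ends stood 17763970 (0.17, SE 0.12) and the dimmest, 17763972 (-0.20, SE 0.15), followed by 17763952 (0.11, SE 0.13) and 17763948 (-0.10, SE 0.11), and the brightest, 17763966, was at -0.02. Neither gene had a probe set with an unadjusted p under 0.05 in limma.

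**Figure D4:**
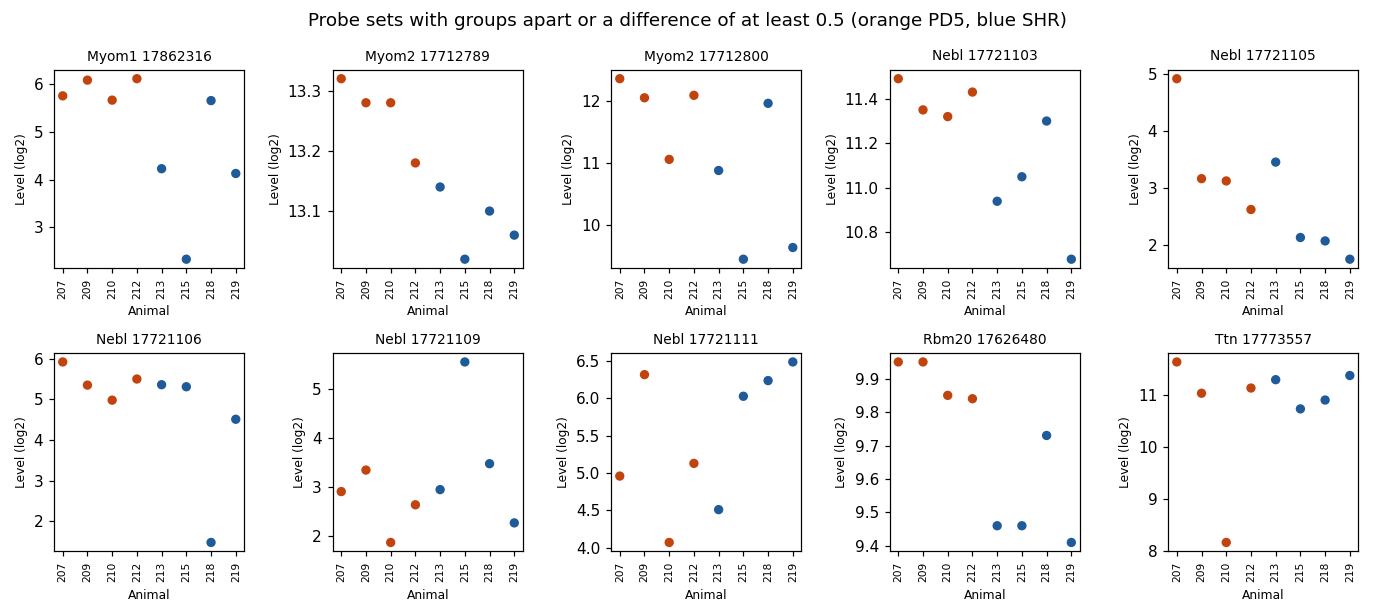
Levels (log2) on each of the 8 arrays, labelled by animal number (PD5 orange, SHR blue), of the 10 probe sets whose strains do not overlap or differ by at least 0.5. In Myom1 17862316 the PD5 points lie between 5.67 and 6.12 and SHR 218 at 5.66, and in Ttn 17773557 a single PD5 point lies at 8.17.

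On the 8 arrays, each probe set was set against the mean of the other probe sets of its gene on the same array. This asks whether a part read by a probe set moved apart from the rest. It cannot speak of exons without a probe set, and whether any Ttn probe set reads the elastic region is not known here. The difference of this relative level passed in 0 of 187 probe sets and in 0 of 162882 over all genes with at least 3 probe sets (0%, limma). At an unadjusted p under 0.05 there were 3, against 4.74% of all, and the strains did not overlap in 5 (2.67%), against 2.76%. The 3 were Myom1 17862316 at 1.81 (SE 0.61), Myom2 17712800 at 1.33 (SE 0.55) and Myom2 17712791 at -0.29 (SE 0.11). In the last of these, PD5 animals lay at -0.58, -0.49, -0.37 and -0.39 and SHR animals at -0.12, -0.10, -0.22 and -0.22, so the groups were apart. In Ttn the relative differences ran from -0.57 to 0.38. By smallest p, not by size, 17773620 (0.38) and 17773636 (0.19) came first on the higher side. On the lower side 17773633 and 17773553 (-0.17 each) did. The strains were apart in 1 Ttn probe set, 17773630 (0.20, SE 0.13). In Rbm20 the relative differences ran from -0.23 to 0.27. Bright probe sets minus dim ones, split at the median of all levels, gave 2.33 ± 0.26 in PD5 and 2.60 ± 0.27 in SHR for Rbm20, and 6.98 ± 0.47 and 7.14 ± 0.57 for Nebl (SD, n = 4 each).

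The values of these genes were then set against each other in pairs. Over the 8 arrays, 19 of 21 pairs of genes had a Pearson r above 0, with a median of 0.53. The pairs share genes and arrays, and the same count over pairs of other genes was not made. For Myom1 and Mybpc3, the pair at the median, 8.27% of 8161 other genes had an r with Myom1 at least as high. After adjustment over the 21 pairs, 1 pair passed. This was Myom2 and Rbm20, with r = 0.93 (exact permutation p = 0.00221, adjusted 0.0464) and Spearman's rho = 0.93 (exact permutation p = 0.00223, adjusted 0.0469). Within the strains r was 0.94 in PD5 and 0.96 in SHR, of 4 arrays each, and without the 2 arrays farthest in Myom2, PD5 207 and SHR 219, it was 0.94. Without Myom2 probe set 17712800 it was 0.87, with a larger p (exact permutation p = 0.00379). The adjustment over the 21 pairs was not repeated there, so it is not shown that the pair passes without this probe set. Among 8161 other genes, 24 had an r with Myom2 at least this high (0.294%). Ttn and Mybpc3 had an r of 0.84 (exact permutation p = 0.0108, adjusted 0.113), and r was 0.82 without the 2 arrays farthest in Ttn, PD5 210 and SHR 213. Ldb3 had an r from -0.20 to 0.36 with the others.

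**Figure D5:**
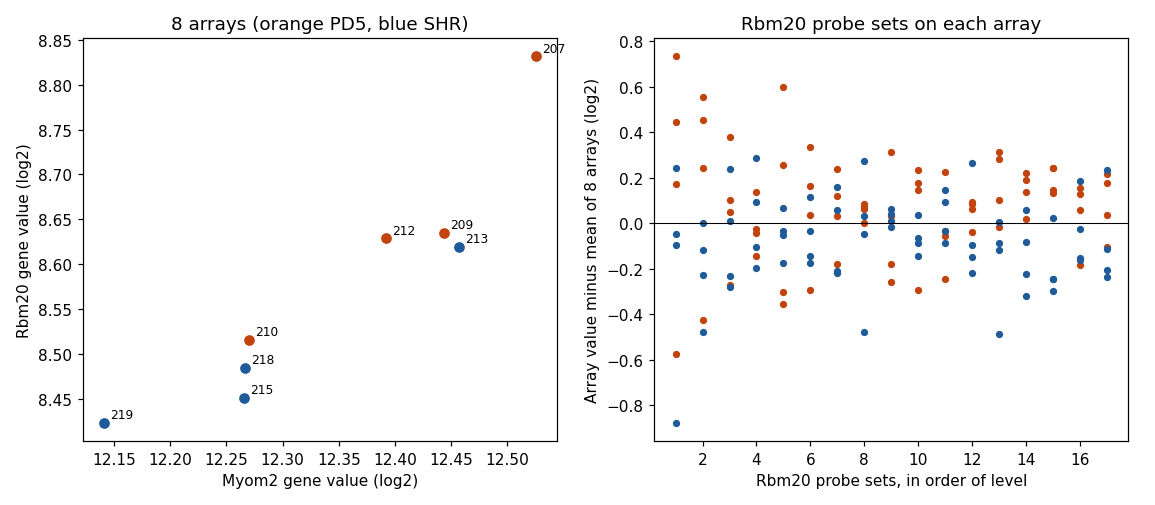
Left, the Rbm20 gene value against that of Myom2 (log2) on the 8 arrays, labelled by animal number (PD5 orange, SHR blue), where r is 0.93. Right, each Rbm20 probe set's value on each array minus its mean over the 8 arrays (log2), in order of level, where the lowest-level probe sets at the left scatter most.

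The genes whose values were most like those of Rbm20 over the 8 arrays were Sidt2 (r = 0.98, rho = 0.93), Clu (r = 0.98, rho = 0.95) and Ddx17 (r = 0.96, rho = 0.98). For Ttn they were Cdk14 (r = 0.96, rho = 0.95), Ccnt2 (r = 0.95, rho = 0.90) and Zranb2 (r = 0.95, rho = 0.76). They were picked as the highest of 8161 genes, so these values are a description and have no test. None of the 6 genes passed between the strains (limma, adjusted p from 0.904 to 0.996).

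The promoters of Ttn and Mybpc3 are shown because their r was the second in the list of pairs, though that pair did not pass. That of Ldb3 is shown because its r with them was lower, at 0.36 with Ttn and 0.14 with Mybpc3. Promoters from RefSeq (GRCr8) were given for 5 of the 7 genes, and not for Myom2 and Rbm20, the pair that passed. Each sequence is the 180 bases before the annotated start, 5′ to 3′, with a MEF2 site in capitals in Ttn and Mybpc3 and a CArG box, the site of serum response factor, in capitals in Ldb3. Ttn lies at chr3:82332111-82332290 on the minus strand, Mybpc3 at chr3:97550881-97551060 on the plus strand and Ldb3 at chr16:9924680-9924859 on the minus strand.
Ttn: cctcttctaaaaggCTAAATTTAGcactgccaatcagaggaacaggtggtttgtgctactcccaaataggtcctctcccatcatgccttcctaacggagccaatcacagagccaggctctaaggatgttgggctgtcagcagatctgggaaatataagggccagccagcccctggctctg
Mybpc3: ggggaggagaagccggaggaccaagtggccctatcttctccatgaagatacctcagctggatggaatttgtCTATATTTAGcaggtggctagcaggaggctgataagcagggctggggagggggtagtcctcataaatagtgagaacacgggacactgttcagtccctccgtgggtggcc
Ldb3: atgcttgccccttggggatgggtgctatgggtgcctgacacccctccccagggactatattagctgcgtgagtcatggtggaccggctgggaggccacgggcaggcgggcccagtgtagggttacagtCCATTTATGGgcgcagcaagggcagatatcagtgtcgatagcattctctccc

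In the 250 bases before the start, searched on both strands, a MEF2 site was found in 2 of these 5 promoters, Ttn and Mybpc3, and in 3.0% of 33469 rat promoters of the same length. A CArG box was found in Ldb3 and Nebl and in 1.5% of all, an E-box (CANNTG) in 4 of the 5 and in 65.5% of all, and neither TATAAA nor AGATAA was found in any of the 5. In Mybpc3 the MEF2 site is followed directly by an E-box. A match is a run of letters, not a site shown to be bound. Whether these sites bear on r between the genes was not tested. Nebl, which also held a CArG box, had an r of 0.50 with Ttn and 0.43 with Mybpc3.

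Lists of related genes were read beside these by gene value. A gene value averages all probe sets of a gene, so it does not show a change of exon use. Of all genes, 50% were above 0. Of 20 transcripts reported as spliced by RBM20, 14 were measured, 11 above 0 and 3 below, with a median of 0.03 beside 0.00 over all genes, and 0 passed over all genes in limma. Their smallest p belonged to Cacna1c, the L-type calcium channel, at 9.19 ± 0.16 in PD5 and 9.02 ± 0.09 in SHR (difference 0.17, SE 0.09), followed by Tpm1, a tropomyosin, at 0.09 (SE 0.06) and Trdn, triadin, at -0.09 (SE 0.07). Of 28 splicing regulators 0 passed, 11 were above 0 and 17 below, with a median of -0.02. Rbm24, another muscle splicing factor, read 9.68, 9.58, 9.56 and 9.66 in PD5 and 9.79, 9.73, 9.77 and 9.87 in SHR. Its groups did not overlap, with a difference of -0.17 (SE 0.06, adjusted p = 0.775 in limma). It was the only 1 of the 28 with groups apart, beside a share of 3.49% over all genes. Clk1, a kinase of splicing factors, was at 9.92 ± 0.12 and 10.16 ± 0.13 (SD, n = 4 each; difference -0.24, adjusted p = 0.779), and Tra2b at -0.14 (SE 0.10).

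Among 16 measured Z-disc genes of 17, 0 passed, 6 were above 0 and 10 below, with a median of -0.01 and Ankrd2 (-0.27, SE 0.11), Myoz1 (-0.21, SE 0.13) and Xirp2 (-0.08, SE 0.09) by smallest p. Among 13 measured titin and M-band ligands of 14, 0 passed, 4 were above 0 and 9 below, with a median of -0.02 and Ankrd23 (-0.12, SE 0.07), Trim54 (-0.09, SE 0.07) and Lrrc39 (-0.07, SE 0.06) by smallest p. The groups were apart in 1 of the 13, Ckm (-0.06, SE 0.05), beside 3.49% of all genes. Of 6 paralogs of the members 5 were measured, and 0 passed. Neb, the skeletal muscle relative of Nebl, was at 0.10 (SE 0.09) over 128 probe sets, Mybphl was at 0.29 (SE 0.32), with SHR 219 highest at 7.15, and Mybph at 0.03 (SE 0.12).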

How the data were processed

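RNA of 8 left ventricles, 1 per animal, was measured on whole-transcript arrays. The authors deposited log2 values per probe set, made with Partek 6.6 per the submitters' processing notes. How background was corrected and probes summarised is not stated there. Array medians ran from 6.93 to 6.98, so the values were used as deposited. No detection calls were used, and the number of arrays limits the precision. The labels do not say whether animals of a strain came from separate litters.

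Of the probe sets, 166557 named 1 gene in the platform annotation, 1631 several and 52043 none, and none of those naming several named a member. Symbols were updated through the GRCr8 gene table (14377 current, 2845 replaced, 87 unmatched), which gave 17305 genes. A gene value is the mean of its probe sets. Genes, probe sets and relative probe set levels were tested with limma 3.58.1 (lmFit, eBayes) in R 4.3.3. Tests were two-sided and p-values were adjusted by Benjamini and Hochberg's method within each whole table, and the scripts were tested on simulated data. Strains share no animal number, so no pairing was used.

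The members and lists were chosen with earlier results of these data known. All members are named. Probe sets named are the highest and lowest, those with the smallest p in each direction and those mentioned after their values were seen (groups apart, differences of at least 0.5). List genes are the 3 with the smallest p, and Ckm, whose groups were apart. The pairs and promoters were chosen after values were seen.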

Additional observations from a re-analysis of the deposited data

Results flagged for a closer look

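Of 108 groups of 4 animals looked at (gene values, spreads and named probe sets), 5 had 1 animal far from the other 3, by Dixon's test at 95%. At this level about 1 in 20 independent groups would be flagged. These groups share arrays and probe sets, and the probe sets were picked by level or p, so the count of 5 cannot be judged against that share. In PD5 209 the Ldb3 spread over probe sets was 0.6476, against 0.562 to 0.574 in the other PD5 animals. In PD5 210, Ttn probe set 17773620 was at 12.01, against 12.36 to 12.42. In the same animal Myom2 probe set 17712802 was at 13.73 against 13.74 in the other 3, a gap of the last deposited decimal. In SHR 213, Mybpc3 probe set 17763966 was at 13.05, against 12.89 to 12.91. In SHR 218, Rbm20 probe set 17626480 was at 9.73, against 9.41 to 9.46, and this is the SHR value nearest to the PD5 animals.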

How the results depend on the processing

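No paired analysis was possible because the strains share no animal number. No member gene and no member probe set, single or relative, was called under any alternative run (0 in each), and the cause of each change below was not tested. At an unadjusted p under 0.05, limma gave 0 or 1 member gene, 1 to 12 single and 1 to 12 relative probe sets, the 12 with a trended, robust prior. That prior called 47 of all genes instead of 9, and 15 of all probe sets instead of 2. The number of all genes called was 0 with the brightest probe set, without moderation or without both PD5 210 and SHR 219, 5 with median-centred arrays and 1 to 7 when leaving out 1 array. Among gene differences, Ttn became 0.0117 without both PD5 210 and SHR 219 and 0.05 with the brightest probe set, where Myom2 became -0.0075 and Mybpc3 -0.02. Rbm20 became -0.0575 with the median of its probe sets. Leaving out 1 array gave -0.0660 to 0.0212 for Ttn and -0.0224 to 0.0520 for Mybpc3. As an interquartile range, the spread differed by -0.0225 in Myom1, -0.0519 in Mybpc3 and 0.238 in Rbm20, and the Myom1 standard deviation differed by -0.0111 without probe set 17862316, an alternative added after seeing the data. Single probe sets near 0 also turned. Without both arrays, Mybpc3 17763966 was at 0.01 and Rbm20 17626484 at 0.0167, and the relative difference of Ldb3 17710387 was 0.0217. Leaving out 1 array gave -0.0258 to 0.0908 in Myom1 17862314, -0.0525 to 0.0308 in Myom2 17712802, -0.00417 to 0.193 in Myom2 17712776 and -0.0917 to 0.0350 in Myom2 17712794. It gave -0.181 to 0.00417 in Ldb3 17710386, -0.0417 to 0.0183 in Mybpc3 17763966, -0.142 to 0.0150 in Rbm20 17626493 and -0.159 to 0.0308 in Rbm20 17626484. For the relative differences it gave -0.0182 to 0.0774 in Ldb3 17710385 and -0.0535 to 0.0210 in Ldb3 17710387. The median standard error was larger in the dim than in the bright probe sets of these genes (0.56 against 0.12), though some bright ones had errors as large, and 4 arrays a strain limit every interval.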
